A study of Mus musculus with 15 samples.

Results

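The genes described here are 10 heat shock chaperone and co-chaperone genes of the mouse: Hspa1a, Hspa1b, Hspa8, Hsp90aa1, Hsp90ab1, Dnajb1, Bag3, Hsph1, Hspb1 and Hspe1. They form a written list of symbols, matched to the count table by gene ID. The list uses no measured value, but it was chosen with earlier results of these data known. The table holds 24454 genes. All 10 were in it, and all 10 were among the 15818 genes that passed the filter on low counts.

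RNA sequencing counted transcripts in 15 libraries of midbrain total RNA from wild-type BDF1 mice (WT) and from transgenic mice (TG). The Thy1 promoter, active mainly in neurons, drives the transgene. Carnosine, which joins histidine to beta-alanine, was given from 2 months of age for 2 months. There were 3 libraries in each of 5 groups. WT control and TG control mice were the control groups. WT intranasal and TG intranasal mice received 2 mg of carnosine through the nose, and TG drinking water mice had 10 mM carnosine in their water. The labels do not say whether the 3 libraries of a group came from separate animals, so p-values measure the spread between these libraries, which may be technical.

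Heat shock chaperones bind unfolded proteins and either help them fold or pass them on for degradation. Many are switched on by heat, oxidative or proteotoxic stress through heat shock factor HSF1, which binds repeats of the unit GAA, or TTC on the other strand, in their promoters. In neurons the constitutive forms are abundant, whereas the inducible HSP70 genes are kept low, and both kinds act on proteins that aggregate in neurodegenerative disease.

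Levels are given in CPM, the count scaled to a common library size. Total counts ran from 13202199 to 60542423 per library. Thy1 was higher in all 9 TG libraries (3296 to 5030 CPM) than in any of the 6 WT libraries (444 to 694 CPM). The libraries also fall on either side of a split that cuts across TG control. The top row without a gene name held 2.31% to 6.22% of counts in 8 libraries, the WT libraries and TG control 1 and 2, and 0.122% to 0.320% in the other 7. The summed pituitary markers reached 857 CPM in library 1 of WT control and 684 CPM in library 1 of TG control, and at most 164 CPM elsewhere. Midbrain dopamine markers were low, with Th, the enzyme that makes the dopamine precursor, at 2.96 to 28.1 CPM. In bulk RNA, fewer cells of a type and less RNA per cell cannot be told apart.

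The promoter sequences of the members were examined for the units that HSF1 binds. RefSeq windows of build GRCm38.p6, from 250 bases before the transcription start to 50 after it, matched 7 of the 10 genes: Hspa1a, Hspa1b, Dnajb1, Bag3, Hsph1, Hspb1 and Hspe1. They were searched for a facing pair of heat shock units, GAANNTTC or TTCNNGAA, each of which reads the same on both strands. A pair was found in 6 of the 7 and in neither window of Dnajb1. Dnajb1 and Hsph1 have 2 windows each, so this count by gene is not the same measure as a share of windows. Among all 32851 windows of the same length, 15.1% held either pair. A run of 3 units, GAANNTTCNNGAA or TTCNNGAANNTTC, which are reverse complements of each other and overlap the pairs, was found in Hsph1 and Hspe1 and in 0.603% of all windows. A match describes letters and does not show that a factor binds there.

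Hspa1a and Hspa1b encode the stress-inducible HSP70 and lie on chromosome 17, 10120 bases apart. Their windows, chr17:34972107-34972406 and chr17:34959189-34959488, both on the minus strand, are shown whole because they differ at 4 of 300 positions (98.7% identical). Capitals mark the pair, at positions -104 to -97 from the start in both.
Hspa1a: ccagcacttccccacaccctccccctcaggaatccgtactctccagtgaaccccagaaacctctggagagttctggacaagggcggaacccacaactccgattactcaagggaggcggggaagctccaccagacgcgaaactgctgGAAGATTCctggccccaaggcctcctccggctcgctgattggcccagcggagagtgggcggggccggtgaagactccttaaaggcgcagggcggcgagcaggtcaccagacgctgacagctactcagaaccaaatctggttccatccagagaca
Hspa1b: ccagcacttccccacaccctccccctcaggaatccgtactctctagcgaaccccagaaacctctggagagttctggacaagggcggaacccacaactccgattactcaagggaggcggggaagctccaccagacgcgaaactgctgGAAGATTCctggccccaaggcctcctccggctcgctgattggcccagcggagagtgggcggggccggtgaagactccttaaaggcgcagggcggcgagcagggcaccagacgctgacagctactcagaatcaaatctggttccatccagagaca

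The Hspe1 window, chr1:55087898-55088197 on the plus strand, is shown whole because Hspe1 shares this promoter with Hspd1. These genes encode the mitochondrial chaperonin partners HSP10 and HSP60 and are read in opposite directions, and their windows overlap by 285 bases. Capitals mark 4 units in a row, from -89 to -72.
Hspe1: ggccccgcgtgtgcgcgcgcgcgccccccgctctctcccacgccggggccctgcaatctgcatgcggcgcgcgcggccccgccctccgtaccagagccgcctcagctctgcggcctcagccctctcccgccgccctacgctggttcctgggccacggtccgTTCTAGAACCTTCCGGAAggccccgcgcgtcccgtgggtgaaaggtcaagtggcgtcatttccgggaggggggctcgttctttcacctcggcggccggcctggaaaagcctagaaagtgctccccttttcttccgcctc

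For the other windows with a pair, the 100 bases around it are shown. They lie at chr5:135887769-135887868 on the plus strand for Hspb1, chr5:149636287-149636386 on the minus strand for Hsph1 and chr7:128523533-128523632 on the plus strand for Bag3. Capitals again mark the units. Hspb1 held 2 separate pairs upstream of its start, Hsph1 a pair at -33 to -26 and a run of 3 units at 36 to 48, and Bag3 a pair at 42 to 49, past its start. Counted from the other RefSeq start of Hsph1, the same pair lies at -54 to -47 and the run at 15 to 27.
Hspb1: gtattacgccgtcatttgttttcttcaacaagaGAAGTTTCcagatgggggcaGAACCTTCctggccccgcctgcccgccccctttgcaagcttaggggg
Hsph1: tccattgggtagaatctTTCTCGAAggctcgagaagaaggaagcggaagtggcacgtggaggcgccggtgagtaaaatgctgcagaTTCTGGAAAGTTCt
Bag3: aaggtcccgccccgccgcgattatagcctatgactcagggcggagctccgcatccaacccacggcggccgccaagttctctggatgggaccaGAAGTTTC

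**Figure D1:**
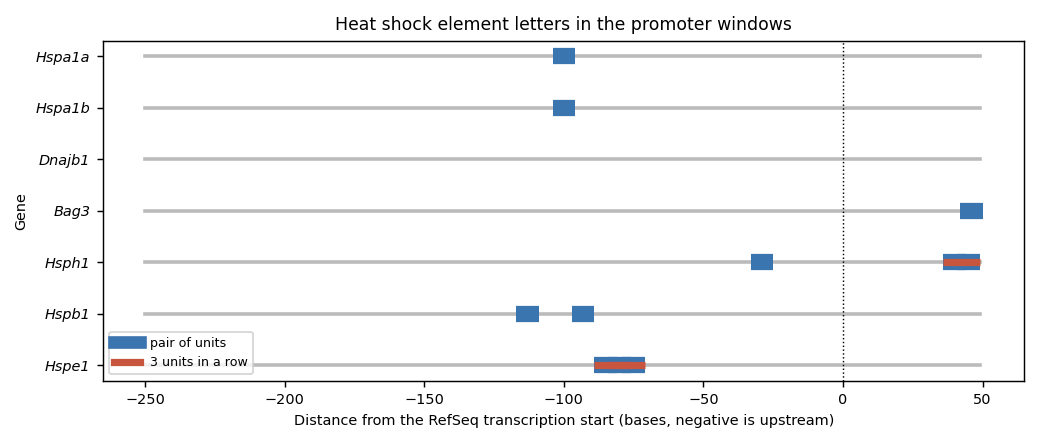
Position of heat shock unit letters in the RefSeq promoter windows of 7 genes, in bases from the transcription start on the x axis (negative is upstream). Blue blocks are pairs of units and red blocks runs of 3 units. For Dnajb1 and Hsph1, which have 2 windows each, only the first is drawn. The Dnajb1 window shows neither, and the blocks of Hspa1a and Hspa1b sit at the same place.

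The members span a wide range of levels. Per kilobase of the longest annotated transcript, the mean over the 15 libraries was 604 CPM for Hsp90ab1, 519 CPM for Hspa8 and 421 CPM for Hsp90aa1. These encode the constitutive HSP90 beta, the constitutive HSC70 and the more inducible HSP90 alpha. Hspe1 followed at 114 CPM per kilobase, Hsph1 at 57.4, Dnajb1 at 20.1, Hspb1 at 17.6 and Bag3 at 7.40. The inducible HSP70 genes were lowest, Hspa1b at 3.33 and Hspa1a at 1.98 CPM per kilobase.

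The inducible HSP70 genes varied most between libraries. The highest library was 13.6 times the lowest for Hspa1b and 13 times for Hspa1a, against 1.5 times for Hsp90ab1 and Hsp90aa1 and 1.51 times for Hspa8. Within groups, the pooled SD on the log2 CPM scale was 1.02 for Hspa1b, at percentile 94.1 of all tested genes, and 0.79 for Hspa1a, at percentile 89.4. It was 0.15 for Hspa8, at percentile 9.62, and 0.19 for Bag3, at percentile 19.5, although Bag3 was the third lowest in level per kilobase. The smallest count behind any member's value was 32, for Hspa1a in WT control 1.

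Libraries 1 and 2 of the TG drinking water group were the 2 highest of all 15 for 6 members, Hspa1a, Hspa8, Hsp90aa1, Dnajb1, Bag3 and Hsph1, and for 240 of all 15818 genes (1.52%). WT intranasal 1 came second, after TG drinking water 2, for Hspa1b, Hspb1 and Hsp90ab1. Of the 10 members, 9 had their highest level in one of these libraries, 7 in library 2 and 2 in library 1, and Hspe1 was highest in WT control 1. Of all tested genes, 5.39% were highest in library 2, 6.01% in library 1 and 18.4% in WT control 1. For Hsp90ab1, TG drinking water 1 was at 1484 CPM, below WT intranasal 1 at 1758 CPM and WT control 2 at 1730 CPM. These counts describe the libraries and carry no test. TG drinking water 3 was the highest library for none of the 10.

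**Figure D2:**
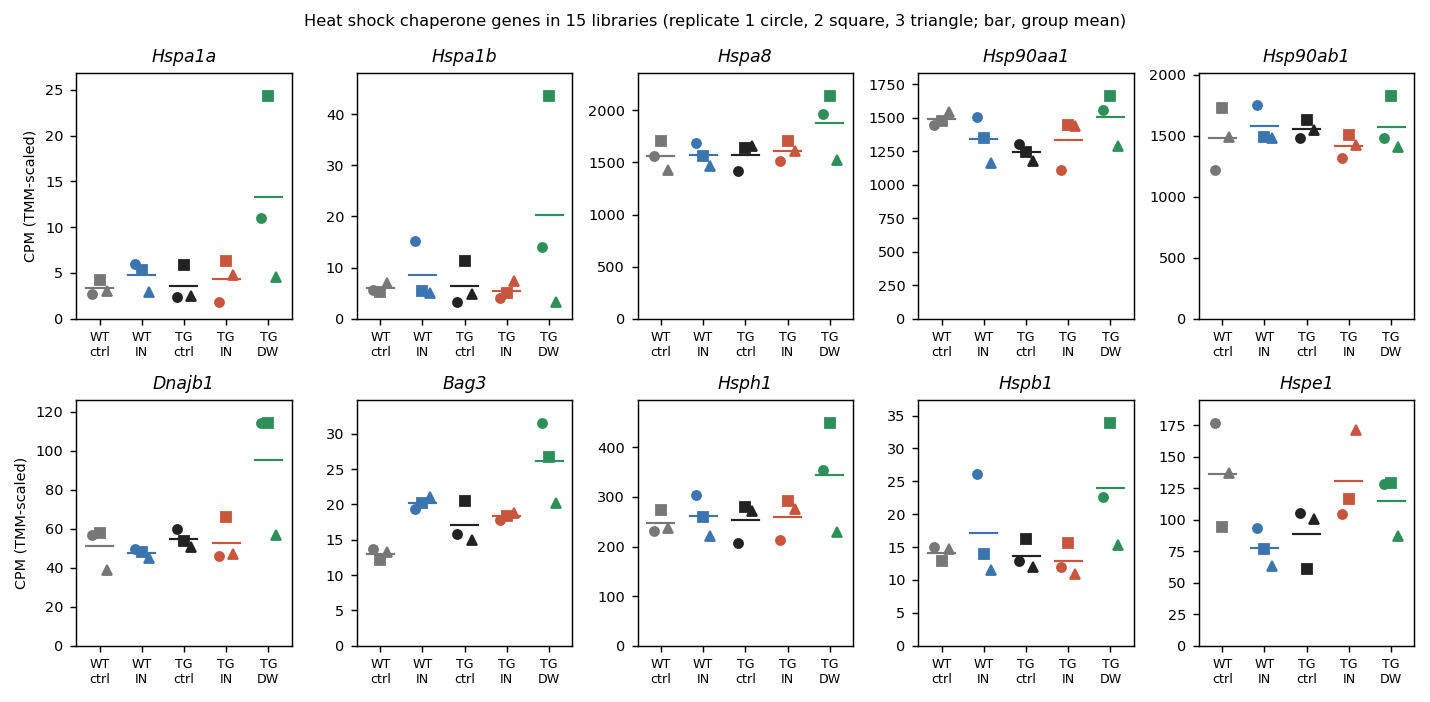
Level of each of the 10 genes in CPM (y axis, from 0, scaled by TMM) in the 5 groups on the x axis. Points are libraries, with a circle for replicate 1, a square for 2 and a triangle for 3, and bars are group means. In TG drinking water, the circle and square lie far above the triangle for Hspa1a, Hspa1b, Dnajb1 and Hsph1.

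The comparison of TG drinking water with TG control asks what carnosine taken by mouth does in the transgenic midbrain. The inducible HSP70 genes had the highest fold changes of the 10, 1.90 on the log2 scale for Hspa1a, but these came from libraries 1 and 2 and did not pass the test. No member was called at an edgeR adjusted p under 0.05 (0 of 10), and 0.00632% of all genes were called. An unadjusted p under 0.05 was reached by 5 members, Hspa1a, Hspa1b, Dnajb1, Bag3 and Hspb1, and by 8.07% of all genes. All 10 log2 fold changes were above 0 with a median of 0.53, where the median of all genes was 0.0050 and 50.7% were above 0. For 0 of the 10 did the 3 treated libraries lie wholly above the 3 controls, against 6.44% of all genes.

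Hspa1a, inducible HSP70, measured 11, 24.4 and 4.54 CPM in TG drinking water 1, 2 and 3, and 2.35, 5.87 and 2.49 CPM in TG control 1, 2 and 3. Treated library 3 lay inside the control range. The log2 fold change was 1.90 (SE 0.55, edgeR adjusted p = 0.256).

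Hspa1b, its near-identical neighbour, measured 14.1, 43.6 and 3.32 CPM against 3.21, 11.3 and 4.93 CPM, a log2 fold change of 1.65 (SE 0.66, edgeR adjusted p = 0.510). Treated library 3 was again in the control range, while library 2 was the highest of all 15. How the counting divided reads between these near-identical copies is not stated, so their split is uncertain and their counts were also summed. The sum was 25.1, 68.0 and 7.87 CPM against 5.56, 17.2 and 7.42 CPM, a log2 fold change of 1.75 with an edgeR adjusted p of 0.374.

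Dnajb1, the HSP40 co-chaperone that delivers clients to HSP70, measured 115, 114 and 56.8 CPM in the treated libraries and 60.02, 53.6 and 50.9 CPM in TG control. Treated libraries 1 and 2 were close to each other and above every other library, and library 3 lay among the controls. Its log2 fold change was 0.80 (SE 0.23, edgeR adjusted p = 0.256). DESeq2 called it at an adjusted p of 0.0335, as 1 of 187 genes, against 1 gene called by edgeR. DESeq2 gave no adjusted p in this comparison for Hspa1a, Hspa1b, Bag3 and Hspb1, so its call covers 6 of the 10 members. Over its 19 alternatives the adjusted p ran from 0.0335 to 1.

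Bag3, the exchange factor that links HSP70 to small heat shock proteins and to autophagy, measured 31.6, 26.7 and 20.2 CPM against 15.8, 20.5 and 15.02 CPM. The lowest treated library lay just under the highest control. The log2 fold change was 0.62 (SE 0.17, edgeR adjusted p = 0.253). Hspb1, a small heat shock protein that holds unfolded clients, measured 22.6, 33.9 and 15.3 CPM against 12.9, 16.2 and 12 CPM (log2 fold change 0.81, SE 0.30, edgeR adjusted p = 0.453). Here too treated library 3 was within the control range.

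Hsph1, the HSP110 exchange factor of HSP70, measured 354, 450.3 and 229 CPM against 208, 280.0 and 272 CPM, a log2 fold change of 0.45 (SE 0.21, edgeR adjusted p = 0.634). Hspa8 measured 1964, 2141 and 1521 CPM against 1421, 1638 and 1655 CPM (log2 fold change 0.25, SE 0.16, edgeR adjusted p = 0.760). For both genes, treated libraries 1 and 2 were the 2 highest of 15 and library 3 was below 2 of the 3 controls. For Hsp90aa1 the log2 fold change was 0.28 (SE 0.16), for Hspe1 0.37 (SE 0.26) and for Hsp90ab1 0.02 (SE 0.16), with edgeR adjusted p of 0.727, 0.802 and 0.993.

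Leaving out treated library 3 raised the median log2 fold change of the 10 genes to 0.73, and without library 2 it was 0.36, with Hspa1a at 1.13 and Hspa1b at 0.43. Leaving out libraries 1 and 2 together, an alternative chosen after the data were seen, lowered it to 0.02, with 5 of 10 values above 0. Hspa1b then stood at -0.95, Hsph1 at -0.13, Hspa8 at -0.04 and Dnajb1 at 0.06. Within the side of the library split that holds all treated libraries, TG control 3 alone remains as the control. The log2 fold changes there were 2.42 for Hspa1a, 0.90 for Dnajb1 and 0.80 for Bag3, and no member was called.

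**Figure D3:**
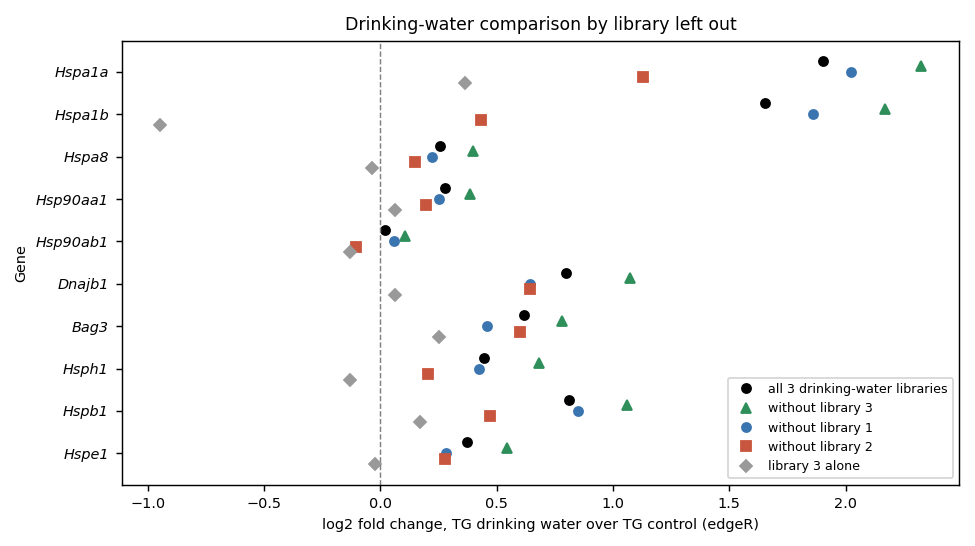
Log2 fold change of TG drinking water over TG control (x axis, edgeR) for each gene with all 3 treated libraries, with each left out in turn, and with library 3 alone. With library 3 alone (grey diamonds) Hspa1a is at 0.36 and Hspa1b at -0.95, and all other genes are closer to 0.

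In TG drinking water, the choroid plexus and ependyma marker sums were lowest in library 3, as every member was. The sums of immediate early genes and of meningeal fibroblast and blood markers were not. The summed level of 16 immediate early genes, which mark recent neuronal activity, was 2444 CPM in TG drinking water 1 but 640.0 CPM in library 2 and 683 CPM in library 3. The next highest sum was 2169 CPM, in TG control 1. Meningeal fibroblast markers, 8 of 8 detected in every library, summed to 291, 358 and 493 CPM in TG drinking water 1, 2 and 3, and to between 238 and 317 CPM in TG control. Of 7 blood markers the 4 haemoglobin genes were at 0 in all 15 libraries, and the sum of the rest was 27.8, 12.3 and 36.9 CPM against 6.90 to 11.7 CPM. Both sums were highest in library 3, where every member was lowest of the 3. The 7 choroid plexus markers summed to 2071, 1644 and 1244 CPM in TG drinking water 1, 2 and 3. In TG control they summed to between 382 and 1576 CPM, and 7 of 7 log2 fold changes were above 0 (median 0.57, 0 called). Ependyma markers summed to 39.5, 35.9 and 26.6 CPM, against 22.3 to 42.7 CPM in TG control. These 2 sums were lowest in library 3, as the members were, but highest in library 1, whereas most members were highest in library 2. The part of the immediate early genes and of all these marker lists in the chaperone levels was not tested.

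Astrocyte and cerebellum markers separated the groups without overlap. The 7 astrocyte markers summed to 5052, 4640 and 5192 CPM in TG drinking water 1, 2 and 3 and to between 5641 and 10355 CPM in TG control, and 0 of 7 log2 fold changes were above 0 (median -0.35). The 8 cerebellum markers summed to 194, 179 and 246 CPM against 116 to 178 CPM, with 8 of 8 above 0 and a median of 1.35. None of these marker genes was called (0 of 7 and 0 of 8). The part of these lists in the chaperone levels was not tested.

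The direct comparison of routes in TG mice, intranasal against drinking water, uses the same drinking water libraries. In TG intranasal 1, 2 and 3, Hspa1a measured 1.87, 6.32 and 4.77 CPM. Hspa1b measured 3.97, 5.09 and 7.29 CPM there, and Dnajb1 45.9, 65.8 and 47.1 CPM. All of these levels lie below those of TG drinking water 1 and 2. TG drinking water 3 lay among them for Hspa1a and Dnajb1 and below them for Hspa1b.

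Relative to drinking water, the log2 fold changes were -1.63 (SE 0.53) for Hspa1a, -1.90 (SE 0.66) for Hspa1b, -0.85 (SE 0.23) for Dnajb1, -0.90 (SE 0.29) for Hspb1 and -0.51 (SE 0.17) for Bag3. No member passed the test (smallest edgeR adjusted p = 0.553). Of all genes 0% were called by edgeR, 1149 had an unadjusted p under 0.05 and DESeq2 called 24. Bag3 was the 1 member whose libraries did not overlap, at 17.8 to 18.8 CPM through the nose and 20.2 to 31.6 CPM in water, against 9.14% of all genes. Dose and route differ together between these groups and cannot be told apart. Here 0 of 16 immediate early genes were above 0 (median -1.26), as were 0 of 8 cerebellum markers (median -0.78), and their part in the chaperone values was not tested.

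**Figure D4:**
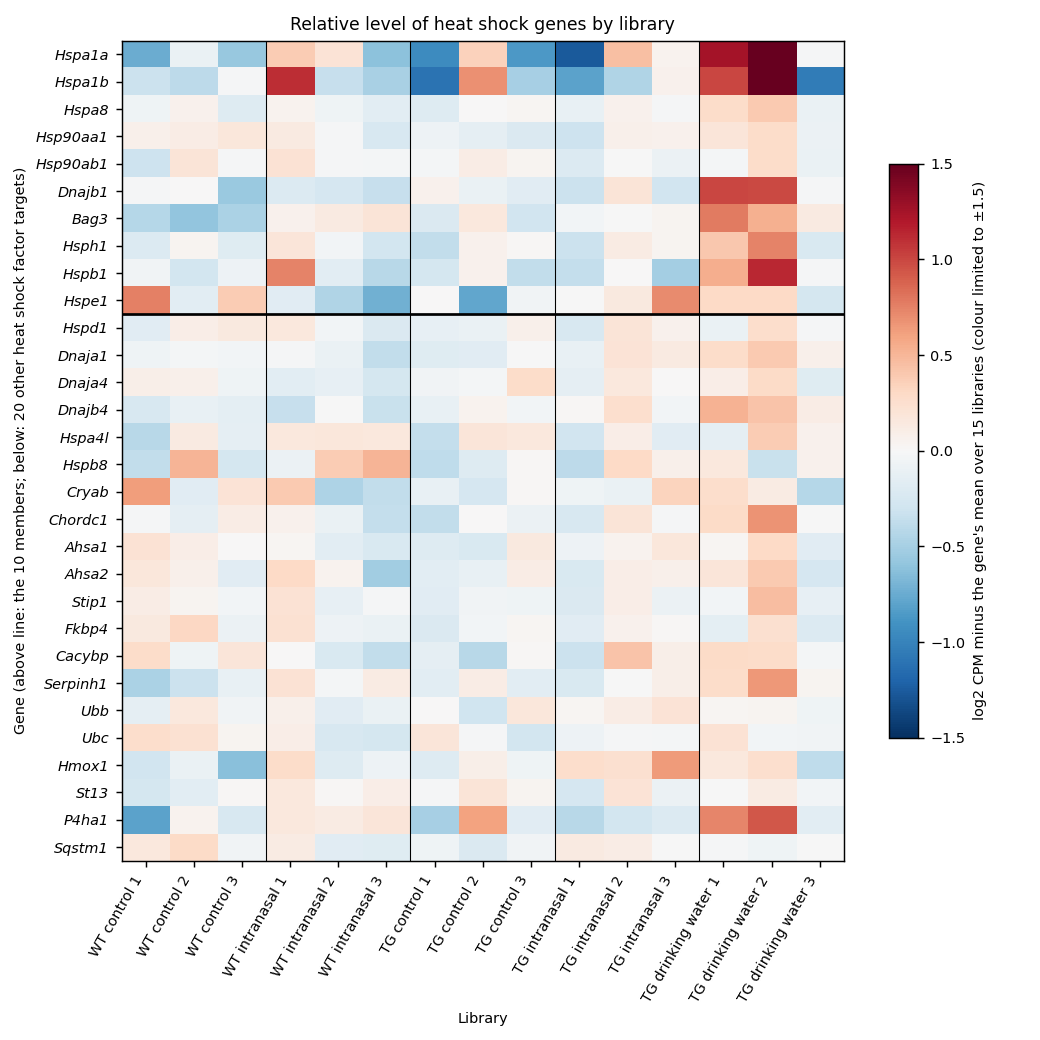
Log2 CPM of each gene minus its mean over 15 libraries (colour, limited to 1.5 in either direction) for the 10 members, above the line, and 20 other HSF1-induced genes, below it. Columns are libraries in group order. TG drinking water 1 and 2 are red for most members and for Chordc1, Dnaja1, Dnajb4, Serpinh1 and P4ha1, and TG drinking water 3 is pale or blue for these genes.

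Intranasal carnosine in WT mice asks what the dipeptide does without the transgene. Bag3 was higher and Hspe1 lower in every treated library than in any control, and the other 8 members overlapped. No member was called (0 of 10, against 1.01% of all genes), and 2 had an unadjusted p under 0.05, as did 24.0% of all genes. Without overlap, 1 member was higher and 1 lower, where 13.2% of all genes were higher and 13.4% lower.

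Bag3 measured 19.3, 20.2 and 21.1 CPM in WT intranasal and 13.6, 12.2 and 13.2 CPM in WT control. Each group was tight and the gap between them wider than either range. Its log2 fold change was 0.63 (SE 0.17, edgeR adjusted p = 0.0644), and DESeq2 called it at an adjusted p of 0.0206, as 1 of 1442 genes called. Over 17 alternatives the value lay between 0.59 and 0.71 and the adjusted p between 0.0206 and 0.297. Other members of the HSP70 system had log2 fold changes below their own SE, 0.51 (SE 0.54) for Hspa1a, -0.10 (SE 0.23) for Dnajb1 and 0.08 (SE 0.21) for Hsph1.

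Hspe1 measured 93.1, 76.7 and 63.3 CPM in WT intranasal and 177, 93.7 and 137 CPM in WT control. The lowest control was barely above the highest treated library. The log2 fold change was -0.80 (SE 0.26, edgeR adjusted p = 0.0946). DESeq2 called it at an adjusted p of 0.0316, as 1 of the same 1442 genes, where 17 alternatives spanned 0.0316 to 0.388. Correction for transcript length and GC content moved it to -0.33 (edgeR adjusted p = 0.198). Hspd1, which shares its promoter, measured 233, 203 and 180.4 CPM against 186, 225 and 231 CPM, a log2 fold change of -0.06 (SE 0.16).

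Markers of other cell types moved in the same comparison. The 8 meningeal fibroblast markers summed to between 269 and 469 CPM in WT intranasal and between 145 and 200.4 CPM in WT control. All 8 were above 0 with a median of 1.17, and 4 were called higher, Col1a2, Fmod, Aebp1 and Igf2. The 8 cerebellum markers had 7 values above 0 and a median of 1.86, with sums of 167 to 259 CPM against 117 to 188 CPM. The 6 pituitary markers had 0 above 0 and a median of -3.43, with sums of 4.98 to 61.2 CPM against 45.8 to 857 CPM. The part of these markers in the values of Bag3 and Hspe1 was not tested.

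TG control against WT control asks what the transgene does without carnosine. No member was called (0 of 10, against 0.0126% of all genes). The inducible HSP70 genes had log2 fold changes well under their SE, 0.08 (SE 0.56) for Hspa1a and 0.13 (SE 0.67) for Hspa1b.

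Bag3 was higher without overlap, at 15.8, 20.5 and 15.02 CPM in TG control against 13.6, 12.2 and 13.2 CPM in WT control, as were 7.37% of all genes. Its log2 fold change was 0.39 (SE 0.18, edgeR adjusted p = 0.255). The 3 WT control libraries were the lowest of all 15 for Bag3. They were also below every TG control library in the summed meningeal fibroblast markers (145 to 200.4 against 238 to 317 CPM), of which 8 of 8 were above 0 (median 0.73, 0 called). The part of these markers was not tested. Hsp90aa1 was lower without overlap, at 1304, 1246 and 1177 CPM against 1446, 1478 and 1540.0 CPM, as were 9.07% of all genes. Its log2 fold change was -0.26 (SE 0.16, edgeR adjusted p = 0.391).

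Hspe1 measured 105, 60.9 and 101 CPM in TG control, with a log2 fold change of -0.61 (SE 0.26, edgeR adjusted p = 0.246). One WT control library, at 93.7 CPM, lay inside the TG range. On the first side of the library split, without TG control 3, the log2 fold change was -0.72 for Hspe1 and 0.47 for Bag3. Length and GC correction moved Hspe1 to -0.25, and leaving out WT control 1, the library with the highest pituitary markers, to -0.37. Without TG control 2 the value was -0.40 for Hspe1 and 0.25 for Bag3. WT control is the reference of both this comparison and WT intranasal. Hspe1 in WT control 1 was the highest of all 15 libraries, as were 18.4% of all tested genes.

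In TG mice, intranasal carnosine gave members a median log2 fold change of 0.04 over TG control. No member was called (0 of 10, against 0.00632% of all genes) and 0 had an unadjusted p under 0.05, as 9.74% of all genes did. DESeq2 called 0 members as well. Hspe1 had the value furthest from 0, at 104, 116 and 171 CPM against 105, 60.9 and 101 CPM, a log2 fold change of 0.55 (SE 0.26, edgeR adjusted p = 0.510). Its lowest treated library was within the control range. Bag3 measured 17.8, 18.4 and 18.8 CPM, inside the TG control range (log2 fold change 0.10, SE 0.17).

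**Figure D5:**
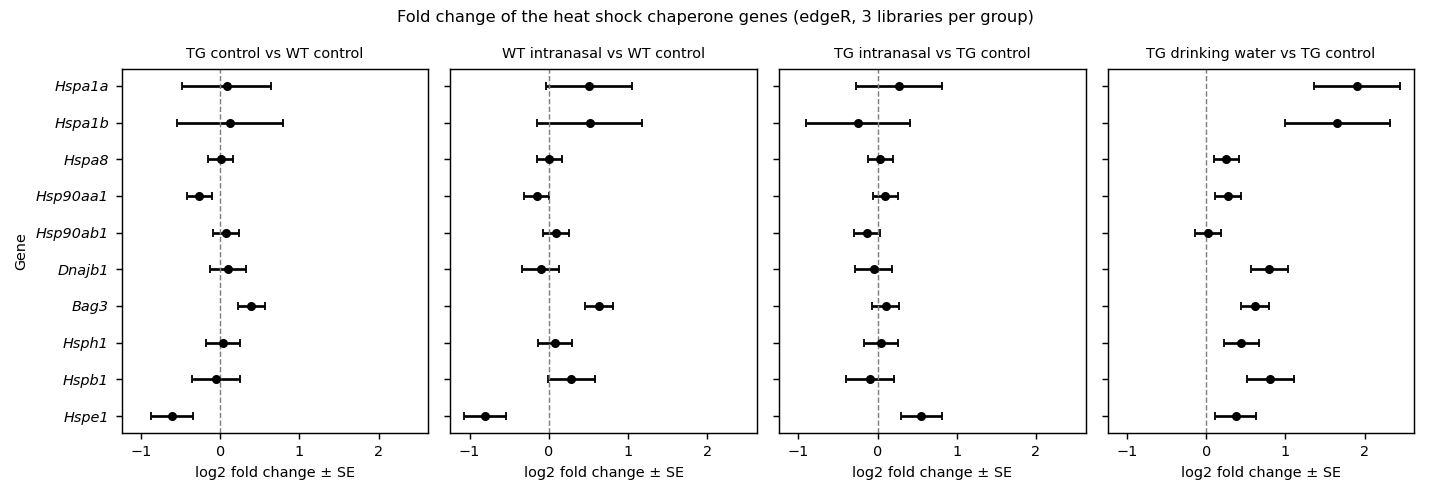
Log2 fold change (x axis, edgeR) of each gene in 4 comparisons of 3 against 3 libraries, with bars of 1 SE either way. The values furthest from 0 are Hspa1a at 1.90 and Hspa1b at 1.65 in drinking water, with the widest bars, and Bag3 and Hspe1 lie on opposite sides of 0 in WT intranasal.

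The interaction asks whether the genotypes differ in their response to carnosine given through the nose, and is the TG log2 fold change less the WT one. For Hspe1 it was 1.36 (SE 0.37, edgeR adjusted p = 0.0505), the value nearest the threshold among the members. No member passed (0 of 10, against 2.32% of all genes). DESeq2 called Hspe1 at an adjusted p of 0.00865, as 1 of 2422 genes called. With DESeq2's size factors edgeR called it as 1 of 706 genes (adjusted p = 0.0499). Without the filter on low counts edgeR called it as 1 of 1276 genes (adjusted p = 0.0319). Over 23 alternatives the adjusted p reached 0.301, with a term for the library split, and the value fell as low as 0.57, with length and GC correction.

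For Bag3 the interaction was -0.53 (SE 0.24, edgeR adjusted p = 0.161). All TG intranasal libraries and 0 WT libraries lie on the second side of the split, so no interaction within a side can be computed. Cell markers moved in the interaction too. Of 7 astrocyte markers 2 were above 0 (median -1.12), and Slc1a2 was called lower. Of 8 meningeal fibroblast and 8 cerebellum markers, 1 each was above 0 (medians -1.07 and -1.61). Immediate early genes had 0 of 16 above 0 (median -1.57), and pituitary markers 6 of 6 (median 1.56). The part of these lists in the values of Hspe1 and Bag3 was not tested.

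Likeness was measured as the Pearson r of log2 CPM over the 15 libraries. Among the members, Hspa1b was closest to Hsph1 at 0.90, Hspb1 at 0.86 and Hspa1a at 0.85. Among all other tested genes with a name, leaving out predicted genes, its 5 closest were Pdia3 at 0.90, Hspa5 at 0.87, Chordc1 at 0.82, and Pus7 and P4hb at 0.81 each. Pdia3 and P4hb encode protein disulfide isomerases, Hspa5 the HSP70 of the endoplasmic reticulum, Chordc1 an HSP90 partner and Pus7 a pseudouridine synthase. Without TG drinking water 1 and 2, r was 0.71 for Hsph1, 0.77 for Pdia3, 0.72 for Hspa5 and 0.50 for Chordc1.

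Hspa8 was closest among the members to Hsph1 at 0.96, Hspa1a at 0.87 and Dnajb1 at 0.85. Outside the members it was closest to Chordc1 at 0.82 and to Dnaja1, an HSP40, at 0.80, followed by Gpr3, Hspa5 and Khdc4. Without the same libraries r was 0.88 for Hsph1, 0.49 for Chordc1 and 0.52 for Dnaja1, and 0.75 for Gpr3. Hsp90aa1 had an r of at most 0.69 with another member, Hspa1a, and outside the members was closest to Dnajb11, an HSP40 of the endoplasmic reticulum, at 0.87 with all libraries and 0.81 without them, followed by Cept1, Fhdc1, Nemf and Rab37. These coefficients are descriptions over libraries that share depth and the split.

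Hspa5 measured 406, 499.5 and 258 CPM in TG drinking water and 183, 339 and 229.6 CPM in TG control. Treated libraries 1 and 2 were the 2 highest of all 15, as for 6 of the 10 members. Its log2 fold change was 0.63 (SE 0.25, edgeR adjusted p = 0.493), and 0.05 with library 3 alone.

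Among 20 other genes known to be induced by HSF1, 0 were called in TG drinking water against TG control. There 19 of the 20 values were above 0, with a median of 0.14, and 4 had an unadjusted p under 0.05. Chordc1 stood at 0.49 (SE 0.18), Dnajb4 at 0.39 (SE 0.14) and Dnaja1 at 0.37 (SE 0.14) on the log2 scale, with edgeR adjusted p of 0.455, 0.456 and 0.491. TG drinking water 1 and 2 were the 2 highest libraries for 5 of the 20, Dnaja1, Dnajb4, Chordc1, Serpinh1 and P4ha1. Of 5 heat shock factor genes, 2 were above 0, the median was -0.07 and 0 were called. Hsf2 stood at 0.52 (SE 0.18) and Hsf4 at -0.33 (SE 0.20), with edgeR adjusted p of 0.376 and 0.736.

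Of the other chaperone lists, 3 genes were called in any comparison. Clpp, the mitochondrial protease subunit, fell in WT intranasal, from 113, 83.7 and 83.5 CPM in WT control to 62.5, 46.8 and 52.7 CPM. Its log2 fold change was -0.79 (SE 0.18, edgeR adjusted p = 0.0472), and 9 of 17 alternatives lost the call. They include leaving out WT control 1 (-0.63), WT intranasal 2 (-0.70) or WT intranasal 3 (-0.77), and length and GC correction (-0.23). In the interaction, Hspb11 at 1.499 (SE 0.38) and Pfdn5, a prefoldin subunit, at 1.82 (SE 0.44) were called higher, each with an edgeR adjusted p of 0.0487. Of 23 alternatives, 14 lost the call of Hspb11 and 12 that of Pfdn5. For both genes these include leaving out any single library other than WT control 2, WT intranasal 1 or TG control 1, with Hspb11 between 1.28 and 1.71 and Pfdn5 between 1.55 and 1.97.

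The 14 genes of the TRiC chaperonin and prefoldin, which fold actin and tubulin, had 0 values above 0 in TG control against WT control and in WT intranasal, with a median of -0.24 in each. All 14 were above 0 in TG intranasal, with a median of 0.22, and in TG drinking water, with a median of 0.21, and 0 were called in these 4 comparisons. WT control is the reference of the first pair of comparisons and TG control of the second, and TG control is also the group compared in the first.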

How the data were processed

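The authors deposited 1 table of raw whole-number counts per gene ID for 15 midbrain RNA libraries, with no normalization. Per the labels' protocols, RNA was extracted as total RNA (mirVana) before Illumina library preparation. The aligner, the counter, the build, the annotation and the strand mode were not given in the sources used here. Columns were matched to samples by the description in the labels. Gene names came from a RefSeq table of GRCm38.p6, which named 24374 of 24454 IDs.

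The analysis used edgeR 4.0.16 in R 4.3.3. There filterByExpr left 15818 genes, libraries were scaled by TMM, and a quasi-likelihood model with a mean per group was fitted to all 15 libraries (common biological coefficient of variation 0.244). Replicate pairs differed by far more than sampling noise (chi-square per degree of freedom at least 10.7). Genes were called at a Benjamini-Hochberg adjusted p under 0.05 over all tested genes. CPM uses the TMM-scaled library size, and log2 CPM a prior count of 2. SE is the log2 fold change divided by the square root of F. Lengths and GC content are those of the longest GENCODE transcript of a gene. The procedure was tested on simulated data.

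The 6 comparisons, the members and the lists of other chaperones, immediate early genes and cell markers were chosen with earlier results of these data known. All 10 members are named, with every other listed gene that was called and up to 3 uncalled genes per list, those of smallest p. The 5 genes most like Hspa1b, Hspa8 and Hsp90aa1 are also named. Named outside that rule, after their values were seen, are Hspd1 and Serpinh1. Pseudogenes of the members were not analysed here. Alternatives were DESeq2 1.42.0, RLE and upper-quartile scaling, no filter, the compared groups only, a replicate block, a loess correction for length and GC content, a term for the library split or one side of it, both pituitary-rich libraries left out, Hspa1a and Hspa1b summed, and each library left out in turn. Leaving out TG drinking water 1 and 2 together was added after the data were seen.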

Additional observations from a re-analysis of the deposited data

Results flagged for a closer look

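For Hspe1, every WT intranasal library was below the WT control mean while every TG intranasal library was above the TG control mean. The interaction was 1.36 on the log2 scale (edgeR adjusted p = 0.0505), which missed the threshold. Hsp90ab1 had the reverse pattern, with an interaction of -0.23 (SE 0.23, edgeR adjusted p = 0.548), no larger than its SE.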

How the results depend on the processing

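The 27 member values followed over the alternatives were those larger in size than their SE in the edgeR fit of all 15 libraries, plus the Hsp90ab1 interaction. This choice favours values with a stable direction. No member was called in that fit, so a kept call means that the value stayed uncalled. Of 509 value and setting pairs with an adjusted p, 489 kept direction and call, 12 gained a call and 8 reversed. A further 4 pairs, Hspa1a, Hspa1b, Bag3 and Hspb1 in TG drinking water under DESeq2, had no adjusted p and so no call to compare. The 8 reversals came with TG drinking water 1 and 2 left out together, when 0 genes were called over TG control and the group is 1 library assumed to vary like the others. The log2 fold change over TG control became -0.95 for Hspa1b, -0.036 for Hspa8, -0.13 for Hsph1 and -0.021 for Hspe1, and P4ha1, outside the list, went to -0.20. That of TG intranasal over TG drinking water became 0.70 for Hspa1b, 0.065 for Hspa8, 0.030 for Hsp90aa1 and 0.17 for Hsph1.

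The count of called genes depended on the fit, and the cause was not tested. In TG control against WT control (2 genes) DESeq2 called 416 and a fit of the compared groups alone 1. In WT intranasal (159 genes) DESeq2 called 1442, 2 of them members, and edgeR without the filter 534. Upper-quartile scaling, a term for the library split and leaving out both pituitary-rich libraries called 0 there, and the compared groups alone 2. In TG intranasal (1 gene) DESeq2 called 19, no filter 5, the compared groups alone 0 and leaving out the pituitary-rich libraries 91. In TG drinking water (1 gene) DESeq2 called 187, 1 of them among the 6 members it gave an adjusted p, no filter 6, the split term 43, one side of the split 65 and leaving out the pituitary-rich libraries 188. Between the routes (0 genes) DESeq2 called 24 and the compared groups alone 1. In the interaction (367 genes) DESeq2 called 2422, RLE scaling 706 and no filter 1276, each with 1 member, Hspe1. There the compared groups alone and the split term called 0, length and GC correction 2 and leaving out the pituitary-rich libraries 669.

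The labels do not say whether replicate numbers pair samples across groups. Correlations of same-numbered libraries, as deviations from their group means, ran from -0.20 to 0.24. Libraries of different number were not compared in this way, so these values cannot decide it. With a replicate block the calls were 531 in TG control against WT control, 1587 in WT intranasal with 1 member, Bag3 (edgeR adjusted p = 0.0348), 0 in TG intranasal, 2 in TG drinking water and 2598 in the interaction with 1 member, Hspe1 (edgeR adjusted p = 0.0176). With a replicate block and length and GC correction they were 159, 577 with 1 member, Bag3, 0 in TG intranasal and 754 in the interaction.

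With each library left out in turn, the calls ran from 0 to 960 in WT intranasal, from 0 to 8 in TG intranasal, from 0 to 8 in TG drinking water and from 0 to 2389 in the interaction, where members called ran from 0 to 1. Hspe1 was called in the interaction without WT control 2, WT intranasal 1 or TG control 1. The smallest member count was 32, and the largest pooled within-group SD 1.02 on the log2 CPM scale, in Hspa1b.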
